A study of Mus musculus with 24 samples.

Results

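Cytosolic ribosomal protein genes encode the proteins of the small and large ribosomal subunits. They were chosen by name: a symbol of Rpl or Rps followed by digits and an optional final a or x, or Rplp0, Rplp1, Rplp2, Rpsa or Rps3a1, with a mean of at least 100 raw counts over the 24 libraries. This gave 75 genes of 55487, of which 30 belong to the small subunit, 42 to the large subunit and 3 to the stalk, the mobile arm of the large subunit. Another 2 genes that fit by name fell under the count minimum, Rps10 with a mean of 60.3 counts and Rpl24 with 7 counts, and the lowest gene inside it was Rpl13a with 317.5 counts. Of the exon bases, 20.6% in Rps10 overlap Gm49804 and 47.0% in Rpl24 overlap Gm28037 on the same strand. Both overlapping genes are listed at 0 counts in every library, as is one that overlaps Rpl13a. The part of such overlap in these low counts was not tested. All 75 members passed the filter on low counts and were tested.

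The libraries hold messenger RNA of mouse bone-marrow-derived dendritic cells, grown with the growth factor GM-CSF from the marrow of mice of both sexes, aged 8 to 10 weeks. Control cultures (WT) had the genotype ARPC4 Flox/Flox CD11c-Cre -/- and knockout cultures (KO) ARPC4 Flox/Flox CD11c-Cre +/-, so both carried floxed alleles of Arpc4, a gene for a core component of the Arp2/3 complex that starts branched actin filaments. Cells in suspension were collected on days 7 to 10, after replating on days 4 and 7, from 3 mice per genotype and day, most of them being CD11c positive per the labels. Cre driven by the CD11c promoter removes floxed sequence only in cells that switch on CD11c. Which mice were male or female is not given. In the labels the same 3 mouse numbers per genotype recur on each day.

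Ribosomes join a single copy of most of these proteins to ribosomal RNA, so the cell needs the proteins in matched amounts, and excess protein is degraded. Their messenger RNAs are abundant, short and stable, and start with a run of pyrimidines that lets the growth-sensing kinase mTOR control their translation. Much of the control of ribosomal protein supply acts at this step, after the RNA is made. Activated and dividing blood cells raise the transcription of ribosomal RNA and of ribosome assembly factors, in part through the transcription factor Myc.

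Library totals ran from 19952047 to 31049798 counts. Arpc4 was at 188 to 270 CPM (counts scaled to a common library size, with TMM library factors) in WT and 155 to 231 CPM in KO, and was lower in KO on each day without passing the test (log2 fold change -0.28 ± 0.07 SE on day 10, adjusted p = 0.22). The 8 dendritic cell markers summed to 2130 to 2599 CPM in WT on day 7 and 4533 to 6104 CPM in WT on day 10. The 9 neutrophil markers summed to 1499 to 5240 CPM and the 9 macrophage markers to 2247 to 4643 CPM over the 24 libraries, while the 4 B cell, 4 T and NK cell and 4 erythroid markers stayed under 10 CPM. None of these markers was at 0 in all libraries. The male transcript Ddx3y was high in WT mouse 63 on every day, but in KO it was high under number 64 on days 7 and 9, number 68 on day 8 and number 67 on day 10, so the KO numbers do not follow 1 mouse over the days.

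The sequences shown here bear on the members the results turn on. The first are promoter stretches of 3 members that were lower and 3 that were higher on day 8 than on day 7 in both genotypes, running from 50 bases before to 25 bases from the RefSeq transcription start (GRCm38.p6, each on its gene's own strand). Capitals mark CCGGAAG on either strand (the core of an ETS or GABP site), CTTTCC on the coding strand (a pyrimidine run of the kind found at the start of these genes) or TATAAA on the coding strand.
Rps27, chr3:90213624-90213698, lower: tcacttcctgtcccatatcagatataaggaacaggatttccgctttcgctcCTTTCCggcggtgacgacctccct
Rpl23, chr11:97782415-97782489, lower: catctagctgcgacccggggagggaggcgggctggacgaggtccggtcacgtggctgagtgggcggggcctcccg
Rpl31, chr1:39367801-39367875, lower: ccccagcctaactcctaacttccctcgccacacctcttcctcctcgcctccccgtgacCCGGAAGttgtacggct
Rps2, chr17:24720013-24720087, higher: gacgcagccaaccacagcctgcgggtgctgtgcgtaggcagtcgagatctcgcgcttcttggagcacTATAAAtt
Rpsa, chr9:120127716-120127790, higher: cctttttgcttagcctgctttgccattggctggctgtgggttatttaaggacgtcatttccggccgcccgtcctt
Rpl13a, chr7:45128721-45128795, higher: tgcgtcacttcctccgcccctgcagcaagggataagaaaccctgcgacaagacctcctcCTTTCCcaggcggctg
Windows of 300 bases (250 before and 50 from the start) were matched for 55 of the 75 members and gave 65 windows, since some genes have several starts. CCGGAAG was in 36.9% of the member windows and 8.86% of all 32851 windows, CTTTCC in 38.5% and 14.1%, and TATAAA in 7.69% and 8.32%. These are matches of letters and were not tested as sites, and the end of CTTTCC can overlap the start of CCGGAAG.

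The second set concerns Rps3a1, a small-subunit gene at chr3:86137940-86142702, and its processed pseudogene Rps3a3 at chr13:108670603-108671397, an intronless copy. The 795 bases of Rps3a3 match the Rps3a1 transcript with 9 substitutions and no inserted or deleted base, an identity of 98.87%, and all 9 lie in the coding sequence. Shown are positions 334 to 393, counted from 1 at the start of the Rps3a1 transcript in GENCODE M21, where capitals mark the substitutions T349C and T393C.
Rps3a1: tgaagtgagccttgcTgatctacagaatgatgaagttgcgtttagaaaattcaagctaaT
Rps3a3: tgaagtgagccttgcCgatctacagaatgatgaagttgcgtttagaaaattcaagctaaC
Within the 795 bases, reads that miss all 9 positions fit both genes, while the Rps3a1 transcript, at 977 bases, also has sequence with no counterpart in Rps3a3.

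Per length, the stalk genes Rplp1 and Rplp0 had the highest levels, while the other stalk gene, Rplp2, was below the median member at 420 TPM. Levels are given in TPM (a level per transcript length, as deposited), which rests on gene lengths that were not stated. Rplp1, a stalk protein that helps recruit elongation factors, had a mean of 4103 TPM and ranged from 3113 to 4885 TPM over the 24 libraries. Rplp0, which anchors the stalk, averaged 1942 TPM and Rps29, a small zinc-binding protein of the small subunit, 1739 TPM. At the low end stood Rpl13a with 17.6 TPM, Rps15a with 95.1 TPM and Rpl35a with 114 TPM. In counts, Rps15a and Rpl35a averaged 5096 and 3437 per library, against 317.5 for Rpl13a. The length implied by counts and TPM was 3.53 times the median member's for Rps15a, 1.98 times for Rpl35a and 0.279 times for Rplp1. Over the members this implied length had a Spearman rho of -0.68 with mean TPM. The order by TPM thus rests in part on the lengths used. The median member was at 455 TPM, and the small and large subunits had close medians, 517 and 444 TPM. The 3 stalk genes held 14.5% of the members' TPM. Of the exon bases of Rpl13a, 29.4% overlap Gm45713 on the same strand, a gene listed at 0 counts in every library.

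As a whole, the family held a share of the RNA that differed little between groups, and its direction over the days depended on the scale. The 75 genes together took 1.93% to 2.65% of the counts and 3.64% to 5.31% of the TPM in the 24 libraries. The WT share of TPM, from day 7 to day 10, was 4.06% ± 0.32 (SD, n = 3), 4.34% ± 0.36, 4.63% ± 0.20 and 4.49% ± 0.42. In KO it was 3.99% ± 0.32, 4.50% ± 0.45, 4.90% ± 0.44 and 4.78% ± 0.46. The day 9 shares of TPM lay above all day 7 shares in both genotypes, and the day 10 shares did so in KO, while the other days overlapped with day 7. After TMM scaling the summed CPM instead went from 24830 ± 2291 on day 7 to 22310 ± 1900 on day 8 in WT, and these groups overlapped. In these bulk samples, less RNA per cell and fewer cells of a type cannot be told apart.

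**Figure D1:**
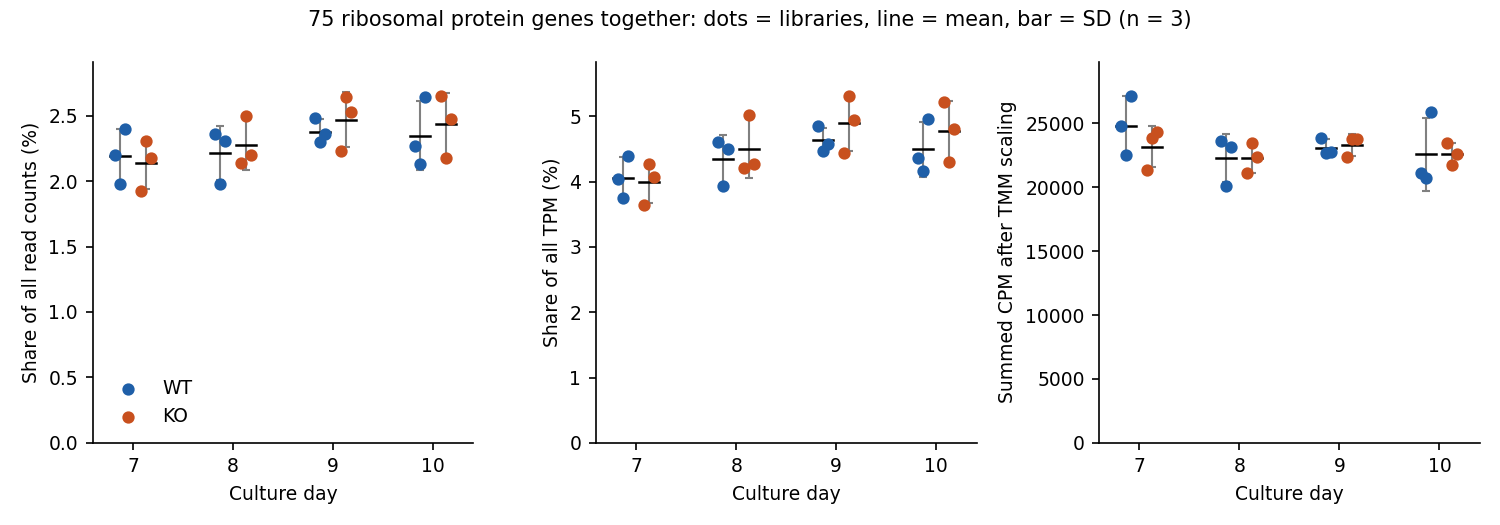
Combined level of the 75 ribosomal protein genes by culture day in WT (blue) and KO (orange), as a share of all counts, a share of all TPM and the summed CPM after TMM scaling. Dots are libraries, lines are means and bars are SD of 3 mice. The means of both shares are higher on day 9 than on day 7 in both genotypes, while the WT mean of summed CPM is lower.

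Between genotypes, no member passed the test on any day. On day 7, 0 of 75 members were called against 1.45% of all 14535 genes tested, and 6 members had an unadjusted p under 0.05 (15.7% of all genes did). The members leaned to lower values in KO on day 7, with 68 of 75 negative and a median log2 fold change of -0.11, where all genes had a median of -0.01. Against the median of all genes this lean was -0.09 with TMM and -0.08 on the TPM scale. It was -0.02 without mouse 66, -0.03 without the libraries numbered 64 and -0.16 without mouse 65, and lay between -0.09 and -0.13 without each of the others. Members with the lowest values on day 7 were Rpl14 at -0.29 ± 0.11 (SE, adjusted p = 0.20), Rpl23 at -0.24 ± 0.09 (adjusted p = 0.21) and Rps3a1 at -0.43 ± 0.39 (adjusted p = 0.63).

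On days 8, 9 and 10 the member medians for KO against WT were 0.01, 0.02 and 0.00. Again 0 of 75 were called, against a background of 0.00688% of genes on day 8, 0.00688% on day 9 and 0.0138% on day 10, and 0 members had an unadjusted p under 0.05 on these days by edgeR, where 5.91%, 8.15% and 7.3% of all genes did. DESeq2 also called 0 members for KO against WT on each of the 4 days. Apart from Rps3a1, the values on day 10 ran from -0.16 (Rpl13a) to 0.12 (Rpl12), with a median SE of 0.10. With such an SE, small differences on the log2 scale were not detectable gene by gene. The change from day 7 to day 10 did not differ between genotypes for any member past the threshold: the interaction called 0 of 75 members and 0.0619% of genes. Day 7 values, whose lean was -0.02 without mouse 66, enter this contrast. Its member median was 0.11, with 66 of 75 positive, where all genes had a median of 0.00 and 49.1% were negative. An unadjusted p under 0.05 was reached by 6.31% of all genes and 2 members, Rpl12 (0.30 ± 0.12 SE, adjusted p = 0.71) and Rpl4 (0.27 ± 0.12, adjusted p = 0.75).

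The step from day 7 to day 8 was where individual members moved, and a small set moved in the same direction in both genotypes. Rps27 fell most, while Rps2, Rpsa and Rpl13a rose. In WT, 28 of 75 members were called lower and 3 higher, against 22% of all genes called lower and 21.5% higher. In KO, 14 were called lower and 5 higher, against 20.9% and 21.1% of all genes. Called in either direction were 41.3% of members and 6315 of 14535 genes in WT, and 25.3% and 6110 in KO. Members were thus not called more often than other genes. The share of members called lower was above that of all genes in WT and near it in KO. The share of members called higher was below that of all genes in both genotypes. Of those called, 13 were lower and 3 were higher in both genotypes (46.4% of the WT and 92.9% of the KO members that fell, and all 3 of the WT and 3 of the 5 KO members that rose), and 0 were called in opposite directions. With mouse number as a replicate block and the KO numbers exchanged to follow Ddx3y, 37 were lower and 4 higher in WT, beside 25.1% and 23.9% of all genes, and 24 lower and 5 higher in KO, beside 24.2% and 23.6%. The WT and KO steps share no library. Across the 75 members the log2 fold changes of both steps had a Pearson r of 0.919 and a Spearman rho of 0.897, a description over genes that share libraries and scaling factors within each step.

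The members that fell are spread over both subunits. Rps27, a zinc-binding protein of the small subunit (chr3:90212522-90213651), was at 222, 192 and 259 CPM in the WT libraries of day 7 and at 134, 137 and 150 CPM on day 8. In KO it was at 194, 218 and 242 CPM on day 7 and at 133, 148 and 147 CPM on day 8. Every day 8 library lay below every day 7 library in both genotypes, and the levels stayed at 127 to 165 CPM on days 9 and 10. Lack of overlap was part of the rule by which members were named. Over all genes, 59.8% in WT and 46.6% in KO lacked overlap in this step. The log2 fold change of Rps27 was -0.67 ± 0.10 (SE) in WT (adjusted p = 2.6e-05) and -0.61 ± 0.10 in KO (adjusted p = 8.0e-05). Of the stretches of 100 bases in the Rps27 transcript, 98.4% also occur in Rps27rt, a retrogene with a mean of 14.8 counts, so reads of both cannot be separated well.

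Large-subunit members were next. Rpl23 (chr11:97777527-97782437), which can also bind the p53 regulator Mdm2, was at 614, 538 and 699 CPM in WT on day 7 and at 440, 384 and 455 CPM on day 8. In KO it went from 505, 513 and 552 CPM to 417, 438 and 447 CPM, again without overlap. The log2 fold changes were -0.53 ± 0.09 in WT (adjusted p = 9.6e-05) and -0.27 ± 0.09 in KO (adjusted p = 0.022). Rpl17, which lines the tunnel through which the new protein leaves, fell by 0.54 ± 0.09 on the log2 scale in WT (adjusted p = 6.7e-05) and by 0.40 ± 0.09 in KO (adjusted p = 0.0014). Rpl31 (chr1:39367842-39371911), near the mouth of that tunnel, was at 319, 286 and 359 CPM in WT on day 7 and at 237, 215 and 243 CPM on day 8, without overlap. Its log2 fold change was -0.47 ± 0.09 in WT and -0.41 ± 0.09 in KO, with adjusted p-values of 0.00031 and 0.0012.

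In the small subunit, Rps14, a protein of the platform that is lost in a human deletion anemia, was at -0.50 ± 0.11 in WT and -0.45 ± 0.11 in KO (adjusted p = 0.00096 and 0.0025). Rps20 was at -0.45 ± 0.13 and -0.47 ± 0.13 (adjusted p = 0.0089 and 0.0067). Others that fell in both genotypes included Rpl26, Rps3, Rps15, Rps15a, Rps16 and Rps23. By subunit, 13 of 30 small-subunit and 15 of 42 large-subunit members were called lower in WT, and 8 and 6 in KO.

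Fewer members rose. Rps2, which sits at the entry of the messenger RNA channel (chr17:24718116-24721929), was at 605, 591 and 609 CPM in WT on day 7 and at 928, 739 and 840 CPM on day 8. In KO it went from 517, 517 and 533 CPM to 783, 858 and 834 CPM. These values did not overlap in either genotype, which the naming rule required. The log2 fold changes were 0.47 ± 0.09 in WT (adjusted p = 0.00021) and 0.66 ± 0.09 in KO (adjusted p = 6.1e-06). On day 10 Rps2 was at 580 to 754 CPM in WT, overlapping day 7, and at 620 to 698 CPM in KO, above all day 7 libraries.

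Rpsa, a small-subunit protein also known as the laminin receptor precursor (chr9:120127689-120132369), was at 674, 622 and 710 CPM in WT on day 7 and at 875, 726 and 857 CPM on day 8. KO libraries went from 589, 709 and 694 CPM to 790, 964 and 815 CPM. Its log2 fold change was 0.29 ± 0.10 in WT (adjusted p = 0.025) and 0.37 ± 0.10 in KO (adjusted p = 0.0064), and from day 7 to day 10 it was 0.29 ± 0.10 and 0.35 ± 0.10. Rpl13a (chr7:45125558-45128761), which also acts in translational silencing after interferon, was low throughout: 8.95, 7.26 and 11.5 CPM in WT on day 7 and 13.7, 10.7 and 13.8 CPM on day 8, with overlapping ranges. It rose by the test in WT (0.46 ± 0.18, adjusted p = 0.040) and KO (0.48 ± 0.18, adjusted p = 0.036). Rps26, at the exit of the messenger RNA channel, and Rpl12, at the base of the stalk, rose in KO (0.34 ± 0.10 and 0.27 ± 0.09, adjusted p = 0.014 and 0.015). In WT they were at 0.10 ± 0.10 and 0.10 ± 0.09 and did not pass, and the difference between genotypes in this step was not tested for them.

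**Figure D2:**
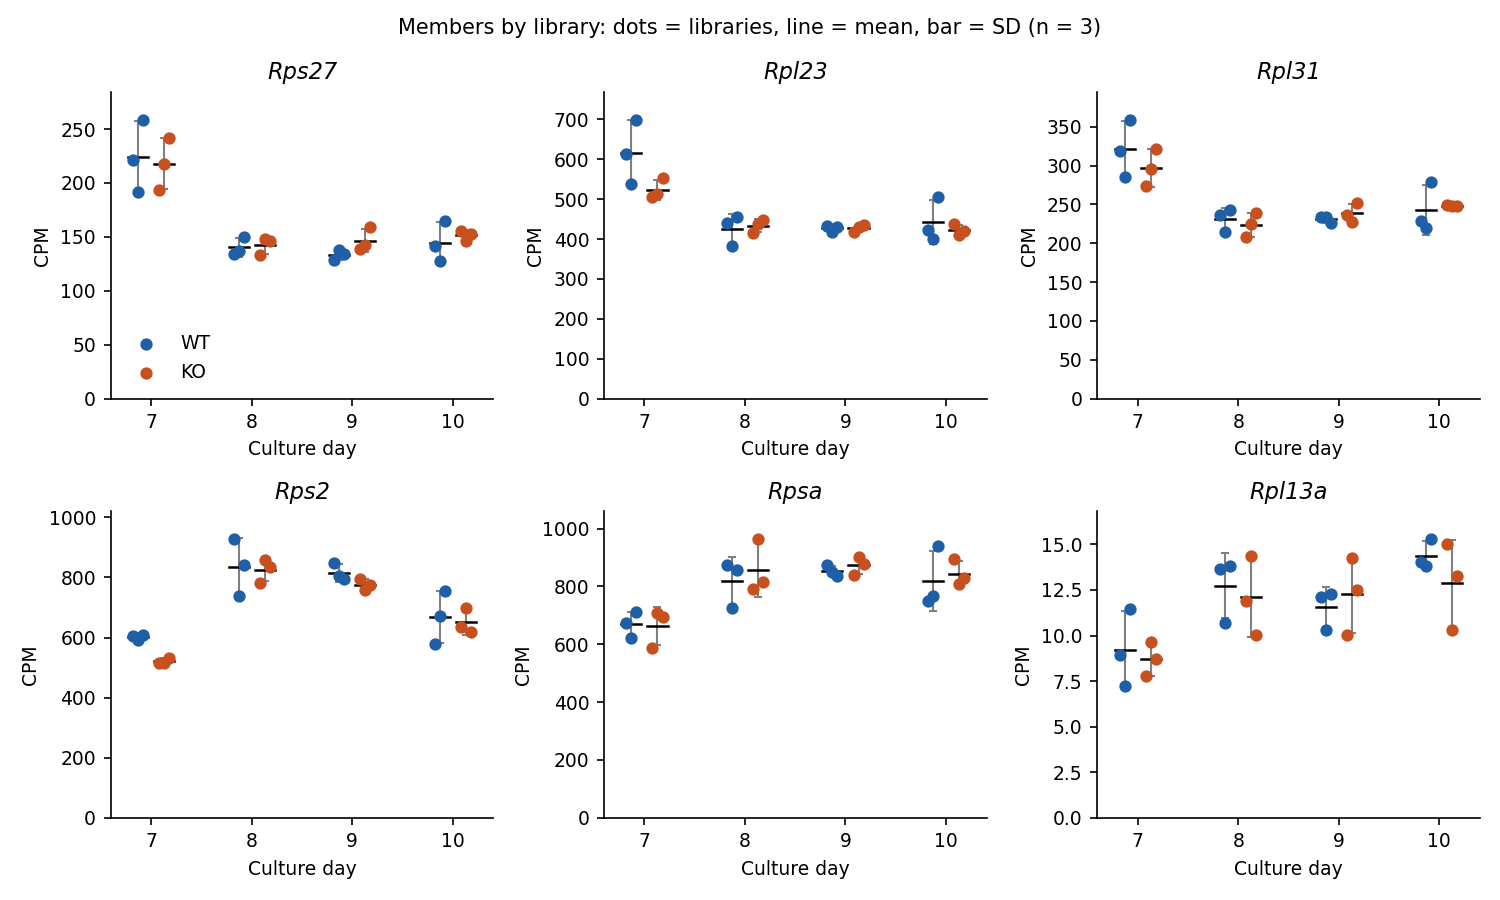
CPM of 3 members that were lower (top row) and 3 that were higher (bottom row) on day 8 than on day 7, by culture day in WT (blue) and KO (orange). Dots are libraries, lines are means and bars are SD of 3 mice. Rps27 falls from 192 to 259 CPM to 134 to 150 CPM in WT, and Rps2 rises in both genotypes on day 8 and is lower again on day 10.

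**Figure D3:**
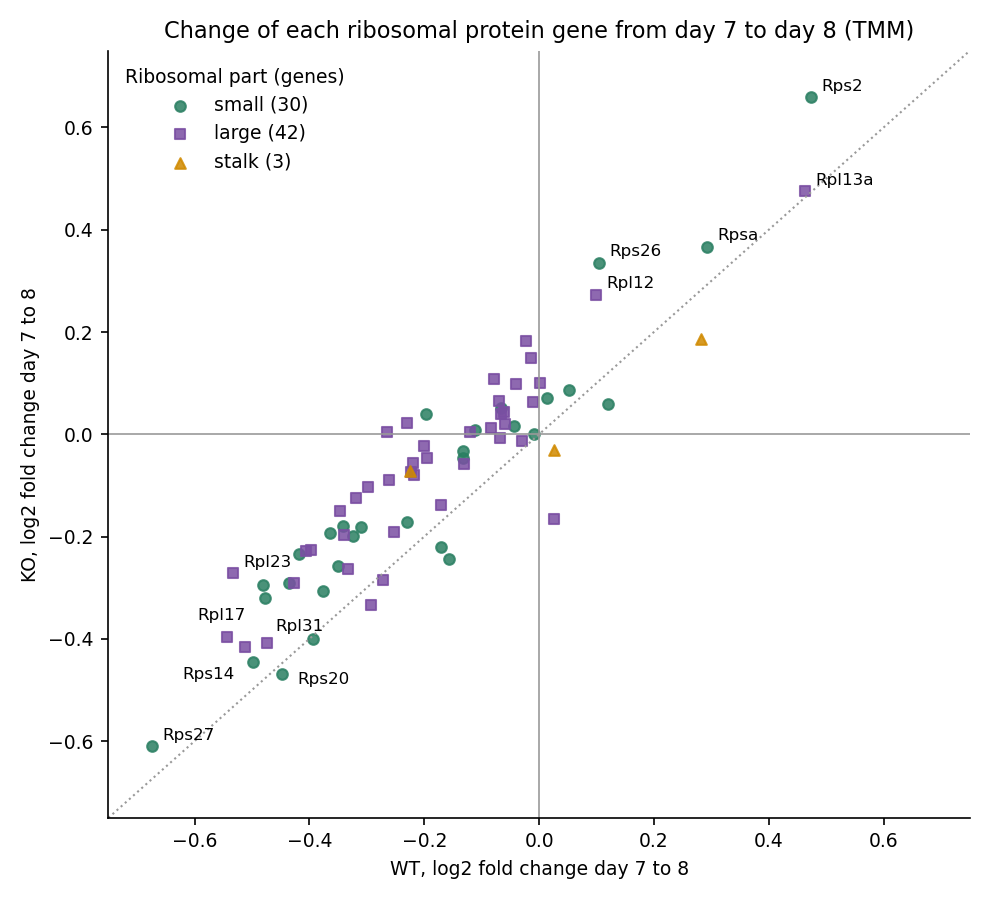
Log2 fold change from day 7 to day 8 of each of the 75 members in WT (horizontal) and KO (vertical), marked by ribosomal part. The dotted line marks equal change, and labels name some of the members with large changes. Points lie along the diagonal, with Rps27 lowest at -0.67 and -0.61 and Rps2 highest at 0.47 and 0.66.

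The direction of the family as a whole from day 7 to 8 depended on the scaling of libraries. The 16 members called in both genotypes kept their sign under each of the 4 scalings compared (TMM, DESeq2 size factors, library total without the members, TPM). With TMM factors the member median from day 7 to day 8 was -0.20 in WT and -0.07 in KO. With the library total without the members it was -0.03 and 0.08, and on log2(TPM + 1) 0.02 and 0.16. These scalings also moved all genes: the median of all genes was 0.00 in WT and KO with TMM, but 0.17 and 0.15 with the library total and 0.17 and 0.17 on the TPM scale. Relative to the median of all genes, the members were at -0.20 (TMM), -0.20 (library total) and -0.14 (TPM) in WT, and at -0.07, -0.07 and -0.02 in KO. The split of calls changed with it. In WT, 28 lower and 3 higher became 9 and 6 with the library total, beside 13.9% and 32.3% of all genes, and 4 and 11 on the TPM scale, beside 11.8% and 35%. In KO, 14 lower and 5 higher became 2 and 11, beside 13.8% and 30.6% of all genes, and 1 and 19, beside 11.2% and 34.8%. All genes shift upward on these scales, and the share of members called higher lay below that of all genes on both. Beside this, the 10 genes with most counts took 20.9% to 21.3% of the counts in WT on day 7 and 13.8% to 14.1% on day 8, and the TMM factors rose from 0.877 to 0.886 to 0.982 to 0.999. The neutrophil marker list had 3 of 9 genes lower in WT and 5 of 9 in KO, with sums of 1499 to 2933 CPM on day 7 and 1707 to 2252 CPM on day 8 in WT, and of 1958 to 5240 and 1921 to 2889 CPM in KO. The part of these in the result was not tested.

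A scaling by the members' own total leaves the overall level out and shows only how members moved against each other. On this scale 20 members fell and 8 rose in WT from day 7 to day 8, beside 12.2% and 27.4% of all genes, and 18 fell and 7 rose in KO, beside 14.7% and 19.9%. Both genotypes shared 16 that fell and 5 that rose, the latter being Rpl12, Rpl13a, Rps2, Rps26 and Rpsa. Rps27 was at -0.51 ± 0.08 in WT and -0.55 ± 0.08 in KO on this scale (adjusted p = 3.6e-05 and 1.8e-05). Rps2 was at 0.62 ± 0.09 and 0.71 ± 0.09 (adjusted p = 2.0e-05 and 5.3e-06). Rplp1 rose against the family in WT (0.43 ± 0.12, adjusted p = 0.0057), and was at 0.24 ± 0.12 in KO (adjusted p = 0.11). The ratio of Rps2 to Rps27 CPM needs no scaling: it was 2.36 to 3.08 in the WT libraries of day 7 and 5.39 to 6.94 on day 8, and 2.21 to 2.66 and 5.69 to 5.88 in KO. On day 10 it was 4.09 to 5.26 in WT and 4.05 to 4.77 in KO, above the day 7 values of each genotype.

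The 3 stalk genes did not pass the test in this step. Rplp0 was at 980 to 1079 CPM in WT on day 7 and 986 to 1080 CPM on day 8, with a log2 fold change of 0.03 ± 0.08 in WT and -0.03 ± 0.08 in KO. Rplp1 was at 0.28 ± 0.12 in WT (adjusted p = 0.066) and 0.19 ± 0.12 in KO (adjusted p = 0.23), and Rplp2 at -0.22 ± 0.11 and -0.07 ± 0.11 (adjusted p = 0.098 and 0.62). Among other well-studied members, Rpl11, which with Rpl5 and 5S RNA restrains Mdm2, was at -0.07 ± 0.08 in WT and 0.07 ± 0.08 in KO. Rpl5 was at -0.32 ± 0.09 in WT (adjusted p = 0.010) and -0.12 ± 0.09 in KO (adjusted p = 0.31). Rps27a, made as a fusion with ubiquitin, was at -0.34 ± 0.09 in WT (adjusted p = 0.0034) and -0.18 ± 0.09 in KO (adjusted p = 0.11), and Rpl10, which joins late in assembly, at -0.34 ± 0.09 (adjusted p = 0.0044) and -0.20 ± 0.09 (adjusted p = 0.086). Rps6, the target of S6 kinase, the X-linked Rps4x, Rps19 and Rpl22 did not pass in this step in either genotype.

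After day 8 no member was called from one day to the next in the edgeR fit over all 24 libraries. From day 8 to 9, 0 of 75 were called in WT and in KO, beside 5.4% and 2.33% of all genes. An unadjusted p under 0.05 was reached by 2 members in WT and 1 in KO, and by 21.8% and 18.7% of all genes. From day 9 to 10, 0 were called, beside 3.6% of genes in WT and 0.0963% in KO, and 2 members in each genotype had an unadjusted p under 0.05, as did 17.7% and 12% of all genes. In WT these were Rpl12 at -0.30 ± 0.09 and Rps2 at -0.29 ± 0.09 (adjusted p = 0.060 and 0.077). DESeq2 called 2 members lower in this WT step. The fit with mouse number as a replicate block and the KO numbers exchanged, a pairing chosen after seeing the data, called Rpl12 and Rps2 lower (adjusted p = 0.019 and 0.023), beside 4.29% of all genes lower and 3.44% higher.

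Over the whole span from day 7 to 10, 20 members were called lower and 2 higher in WT, beside 18.1% and 18.9% of all genes. In KO 3 were lower and 3 higher, beside 17.1% and 19.7%. With mouse number as a replicate block and the KO numbers exchanged to follow Ddx3y, 29 were lower and 2 higher in WT, beside 22.6% and 21.4% of all genes. In KO 10 were lower and 5 higher, beside 21.4% and 22.7%. The interaction called 0 members in that fit too. Over the same span 26 of 28 proliferation genes were called higher in WT and 27 in KO, and 5 of 8 dendritic cell markers were higher in each genotype. Of 9 macrophage markers, 5 were lower and 1 higher in WT, and 6 were lower and 1 higher in KO. Summed macrophage markers were at 3770 to 4035 CPM on day 7 and 2563 to 2641 CPM on day 10 in WT. The KO sums overlapped, at 3451 to 4512 and 2247 to 3605 CPM. Of 9 neutrophil markers 4 were higher and 1 lower in WT, with sums of 1499 to 2933 and 3568 to 5203 CPM, and 0 were higher and 2 lower in KO. The part of these in the members' changes was not tested. Rpl23, Rpl31 and Rps27 were lower and Rpl13a and Rpsa higher in both genotypes. Of these, Rpl31 in KO kept its call and direction in 8 of 17 alternative fits and reversed in 1. Rps27 was at -0.63 ± 0.10 in WT (adjusted p = 8.2e-05) and -0.52 ± 0.10 in KO (adjusted p = 0.00055). Rps3 and Rpl15 fell in WT (-0.34 ± 0.09 and -0.31 ± 0.10, adjusted p = 0.0041 and 0.015), and Rps2 remained higher in KO (0.32 ± 0.09, adjusted p = 0.0080). The member median was -0.17 in WT and -0.06 in KO with TMM but 0.11 and 0.25 on log2(TPM + 1), where the median of all genes was 0.21 and 0.25. On that scale 13 members were called higher and 1 lower in WT, beside 39.9% and 7.37% of all genes, and 33 higher and 0 lower in KO, beside 44.3% and 7.29%. The share of members called higher was thus below or close to that of all genes. Scaled by the members' own total, 6 fell and 6 rose in WT (7.09% and 23.9% of all genes) and 9 fell and 8 rose in KO (10.5% and 17.8%). Rps6 and Rps18 rose against the family in both genotypes, Rps6 by 0.31 ± 0.08 in WT and 0.26 ± 0.08 in KO. The number of WT calls from day 7 to 10 was 4 without mouse 63 and 11 without mouse 65. Leaving out the KO libraries numbered 68, which need not be 1 animal, gave 3 calls in KO. For KO from day 7 to 8 there were 11 calls without the libraries numbered 67 and 6 without those numbered 68.

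Rps3a1 varied most among libraries, and by library rather than by day or genotype. After the mean of the members was taken out of each library, its SD over the 24 libraries was 0.48 on the log2 scale, against 0.31 for Rpl13a, 0.29 for Rps2, 0.25 for Rps27 and 0.20 for Rpsa, and a median member of 0.09. In 12 libraries Rps3a1 was at 235 to 333 CPM and the pseudogene Rps3a3 at 67.3 to 91.8 CPM, a ratio of 3.49 to 3.93. In the other 12, Rps3a1 was at 130 to 197 CPM and Rps3a3 at 126 to 202 CPM, a ratio of 0.926 to 1.06. No library lay between. The former were WT mice 63 and 65 on every day, KO number 67 on days 7, 8 and 9, and KO number 64 on day 10. Each WT group thus held 2 libraries of that kind and each KO group 1, and the SE of Rps3a1 was 0.39 in the comparison of genotypes on day 7.

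Summing the reads of Rps3a1, Rps3a2 and Rps3a3 gave 269 to 432 CPM per library. The SE fell to 0.13, and KO against WT was at -0.24 ± 0.13 on day 7 and -0.12 ± 0.13 on day 10 (adjusted p = 0.37 and 0.90). From day 7 to 8 the sum was lower in WT by the test (-0.36 ± 0.13, adjusted p = 0.026), where Rps3a1 alone was at -0.36 ± 0.39 (adjusted p = 0.47). In KO the sum was at -0.20 ± 0.13 (adjusted p = 0.23).

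**Figure D4:**
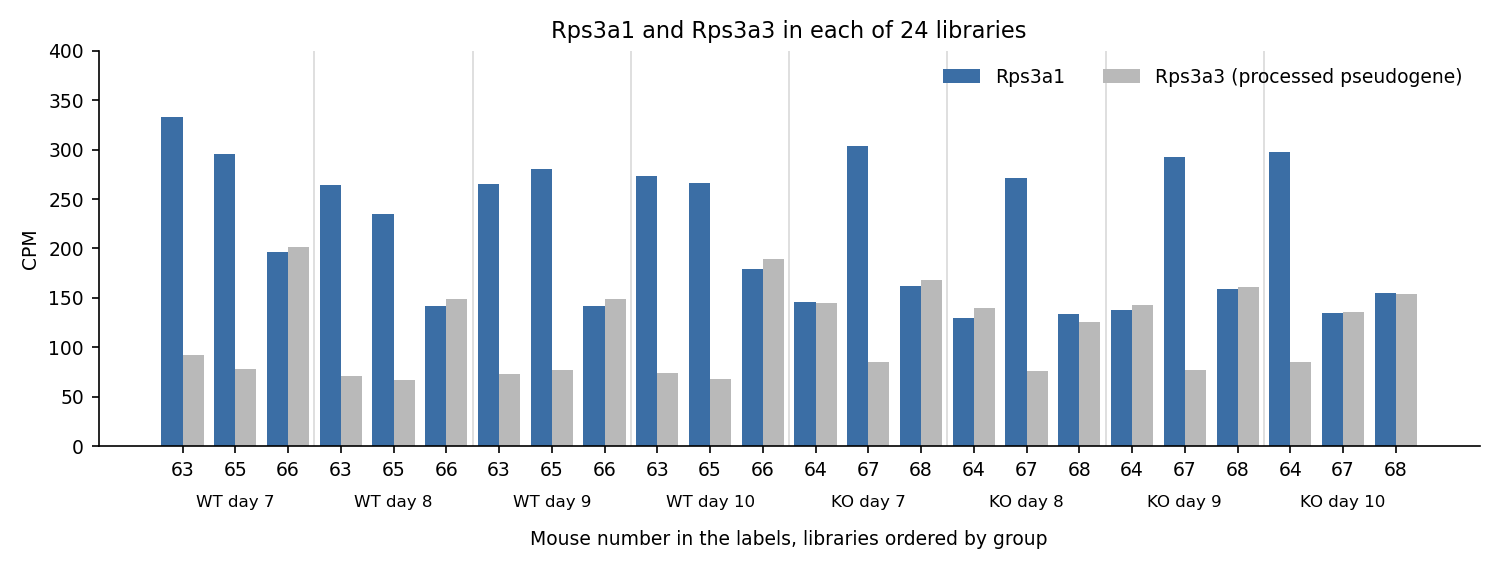
CPM of Rps3a1 (blue bars) and its processed pseudogene Rps3a3 (grey bars) in each of the 24 libraries, grouped by genotype and day and labelled with the mouse number. Libraries show either a tall blue bar with a grey bar under 92 CPM or a pair of bars of like height between 126 and 202 CPM. In KO the tall bar is under number 67 on days 7 to 9 and number 64 on day 10.

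Properties of the genes went only loosely with the change. Over the 75 members, the Spearman rho of the WT change from day 7 to 8 was 0.35 with the GC content of the transcript, -0.11 with its length, 0.17 with mean TPM and 0.09 with the share of its 100-base stretches found in other genes. In KO these were 0.28, 0.04, 0.11 and 0.13. The median member shared 31.8% of such stretches with other genes, mostly pseudogenes, and 24 members shared over 50%. Small nucleolar RNA genes lay within 30 of the 75 members, 58 in all, and their number had a rho of -0.02 with the change in WT and 0.09 in KO.

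Genes that make ribosomes moved apart from the genes for their proteins. Of 50 ribosome biogenesis genes (RNA polymerase I subunits, processing and assembly factors), 45 rose and 1 fell in WT from day 7 to 8, with a median log2 fold change of 0.73, and 45 rose and 0 fell in KO, with a median of 0.81. Of all genes, 21.5% were called higher and 22% lower in this WT step, and 21.1% and 20.9% in KO. Heatr1, a factor of pre-ribosomal RNA transcription and processing, rose by 1.69 ± 0.10 in WT and 1.5 ± 0.10 in KO (adjusted p = 1.9e-10 and 8.1e-10). Dkc1, the pseudouridine synthase of nucleolar RNA particles, rose by 1.68 ± 0.14 and 1.71 ± 0.14 (adjusted p = 1.4e-08 and 1.2e-08). Nop56, a core protein of box C/D particles, was at 41.6 to 42.4 CPM in WT on day 7 and 71.3 to 80.9 CPM on day 8. From day 9 to 10, 34 of the 50 fell in WT and 3 in KO, beside 3.6% and 0.0963% of all genes called in either direction. The list medians were close, -0.39 in WT and -0.30 in KO, and the difference between genotypes in this step was not tested. The rise from day 7 to 8 held on the library total and on the TPM scale. On the library total 46 and 48 of 50 were called higher in WT and KO, beside 32.3% and 30.6% of all genes. On the TPM scale 48 and 48 were, beside 35% and 34.8%. Relative to the median of all genes the list was at 0.74 and 0.81 (library total) and 0.74 and 0.82 (TPM).

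Of 77 mitochondrial ribosomal protein genes tested, whose products form the ribosome of the mitochondrion, 38 rose and 2 fell in WT and 38 rose and 3 fell in KO (medians 0.21 and 0.21). In this step from day 7 to 8, 21.5% of all genes were called higher and 22% lower in WT, and 21.1% and 20.9% in KO. Mrps18b rose by 0.69 ± 0.12 in WT and 0.70 ± 0.12 in KO (adjusted p = 0.00013 and 0.00011), while Mrpl14 fell (-0.35 ± 0.11 and -0.46 ± 0.11, adjusted p = 0.018 and 0.0025). The 14 chaperones and importers of ribosomal proteins had 7 higher and 0 lower in WT and 9 and 0 in KO. Heatr3, which carries Rpl5 and Rpl11, rose by 0.69 ± 0.07 and 0.76 ± 0.07 (adjusted p = 3.9e-07 and 1.2e-07). Medians of the mitochondrial, chaperone and biogenesis lists were positive under each of the 4 scalings compared.

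**Figure D5:**
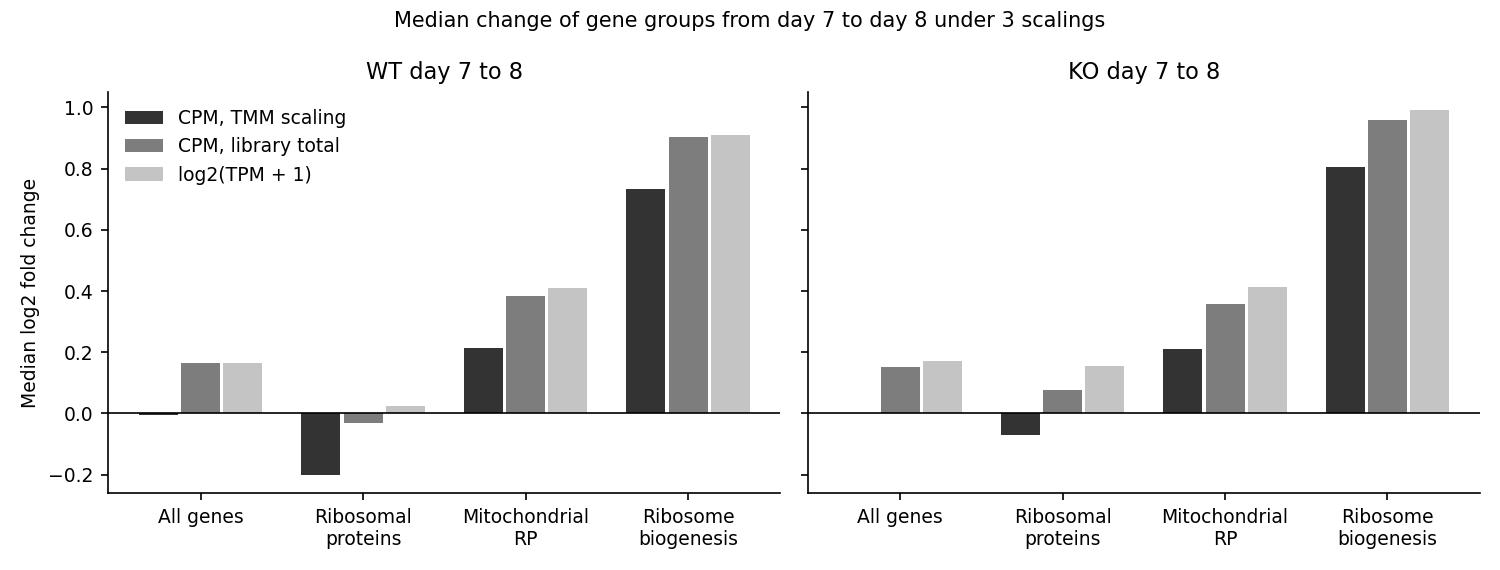
Median log2 fold change from day 7 to day 8 of all genes, the 75 ribosomal protein genes, the mitochondrial ribosomal protein genes and the ribosome biogenesis genes, in WT (left) and KO (right). Bars give 3 scalings of the same libraries. Ribosome biogenesis is at 0.73 or above and the ribosomal protein genes are below the median of all genes in each.

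Other genes whose messenger RNAs share the pyrimidine start, mostly translation factors, were mixed: of 25, 9 rose and 10 fell in WT and 11 rose and 7 fell in KO. Beside these, 21.5% of all genes were called higher and 22% lower in WT, and 21.1% and 20.9% in KO. Tpt1, a translationally controlled growth protein, fell from 1680 to 2013 CPM to 840 to 884 CPM in WT (log2 fold change -1.10 ± 0.08, adjusted p = 1.6e-09) and by 0.87 ± 0.08 in KO (adjusted p = 3.8e-08). Eef1a1, the factor that delivers transfer RNA, was at -0.55 ± 0.09 and -0.35 ± 0.09 (adjusted p = 5.3e-05 and 0.0039), while Hnrnpa1, an RNA-binding protein, rose by 0.69 ± 0.15 and 0.80 ± 0.15 (adjusted p = 0.00070 and 0.00018). On the TPM scale, which moved all genes up, the split of this list was 11 higher and 2 lower in WT and 13 and 1 in KO. All genes had 35% called higher and 11.8% lower on that scale in WT, and 34.8% and 11.2% in KO. Relative to the median of all genes the list was at -0.15 (TMM) and -0.09 (TPM) in WT and at 0.12 and 0.13 in KO.

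Myc, whose protein drives transcription of ribosome genes, was at 21.9 to 25.9 CPM in WT on day 7 and 62.1 to 78.8 CPM on day 8. It rose by 1.61 ± 0.12 in WT and 1.68 ± 0.13 in KO (adjusted p = 5.7e-09 and 4.0e-09), and fell again in WT from day 9 to 10 (-0.86 ± 0.12, adjusted p = 0.0022). The list of 22 growth control genes tested that holds Myc had 8 higher and 4 lower in WT and 10 and 5 in KO, with medians of 0.10 and 0.20. Beside the 22% and 20.9% of all genes called lower, its lower calls were near the background. Its higher calls lay above the 21.5% and 21.1% of all genes called higher. Mnt, a Myc antagonist, fell by 0.73 ± 0.06 and 0.70 ± 0.06 from day 7 to 8 (adjusted p = 3.2e-08 and 6.0e-08). Of 28 proliferation genes, 18 rose in WT and 4 in KO from day 7 to 8, beside 21.5% and 21.1% of all genes, and 1 fell in each. Their summed levels were 539 to 609 CPM on day 7 and 811 to 992 CPM on day 8 in WT. The KO sums were 701 to 1093 CPM and 636 to 1434 CPM, which overlap. Their part in the changes of the ribosomal protein genes was not tested.

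Relatives left out by the name rule did not all follow the family. Fau, which encodes the small-subunit protein eS30 fused to a ubiquitin-like protein, fell like Rps27, from 320 to 407 CPM to 207 to 254 CPM in WT (-0.61 ± 0.12, adjusted p = 0.00047) and by 0.62 ± 0.12 in KO (adjusted p = 0.00041). Rack1, a scaffold on the small subunit, was at -0.16 ± 0.10 and -0.12 ± 0.10 (adjusted p = 0.20 and 0.36). Rps27l, the paralog of Rps27 and a p53 target, moved opposite to Rps27: it rose from 51.7 to 59.7 CPM to 100.3 to 108 CPM in WT (0.89 ± 0.09, adjusted p = 2.7e-07) and by 0.82 ± 0.09 in KO (adjusted p = 7.8e-07). Rpl7l1, a paralog of Rpl7, rose by 0.59 ± 0.07 and 0.49 ± 0.07 (adjusted p = 9.3e-07 and 9.1e-06). Rpl22l1, the paralog of Rpl22, was at -0.77 ± 0.30 in WT (adjusted p = 0.042) and -0.64 ± 0.30 in KO (adjusted p = 0.090). Rpl3l and Rpl39l, paralogs used in muscle and testis, averaged 20.5 and 7.42 counts per library, and Rpl10l had 0 counts in all 24.

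Named processed copies of ribosomal protein genes were mostly low: 47 of 303 passed the filter, of which 1 was higher and 5 lower in WT from day 7 to 8 and 2 higher and 0 lower in KO, shares below those of all genes. Among these, Rpsa-ps10 was higher in KO (0.81 ± 0.24, adjusted p = 0.0095) and Rps2-ps10 in WT (0.70 ± 0.26, adjusted p = 0.037), and reads of such copies cannot be fully told apart from those of their parent genes.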

How the data were processed

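Polyadenylated RNA of 24 libraries was sequenced as stranded paired reads, per the labels' protocols, from RNA of high integrity, with 2 library kits named without saying which library used which. The submitters' processing notes name FastQC 0.11.9, STAR 2.6.1, DESeq2 1.22.2 and mm10. The counting tool and its strand setting are not given in the sources used here. The authors deposited raw counts per gene and TPM per gene, without stating the gene lengths. Groups follow the genotype and day labels. The members, gene lists and rules were chosen with earlier results of these data known.

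The deposited counts went into edgeR 4.0.16 under R 4.3.3 (TMM factors, filterByExpr over 8 groups, quasi-likelihood fit over all 24 libraries with 1 coefficient per group). This left 14535 genes, over which p-values were adjusted by Benjamini-Hochberg with a threshold of 0.05. SE values are of log2 fold changes. Named members are, for each comparison, the 5 largest called changes per direction without overlap of the groups' CPM, a fixed panel of 14 well-studied members, the 3 highest and 3 lowest TPM, and the 5 with most spread relative to the family; Fau, paralogs and up to 2 called genes per direction of each list were added. Others (Nop56, Eef1a1, Rpl4, Rpl14, Rps18, the members named by a shared call) were chosen after their values were seen. Ratios of Rps2 to Rps27 were too. A few genes the rule names are not reported here.

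Alternatives were DESeq2 1.42.0 (size factors, Wald test), limma 3.58.1 on log2(TPM + 1), library totals without the members, no filter, only the groups compared, the mouse number as replicate block, and leaving out each mouse. Chosen after seeing the data were a scaling by the members' total, summed Rps3a reads, a block with KO numbers exchanged, and a fit without 4 KO libraries. Same-numbered libraries deviated together in WT (mean r 0.37 to 0.62 over 11111 genes) but not in KO (-0.14 to 0.13). Positions are GENCODE M21 on GRCm38. The fitting was also run on simulated counts, with planted changes larger than most seen here and libraries drawn independently. That run does not cover changes of the size seen here or repeated mice. P-values of the main fit rest on the spread between libraries within groups, estimated over all 24 libraries. That fit treats libraries of the same mouse on several days as independent.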

Additional observations from a re-analysis of the deposited data

How the results depend on the processing

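For KO against WT on each day, day 8 to 9 and the interaction, 0 members were called under each of the 17 alternatives. From day 7 to 8 in WT, where 31 members were called, the count was 15 with the library total, 15 on log2(TPM + 1) and 21 to 30 leaving out 1 mouse number. For KO (19) it was 6 to 23 leaving out 1 mouse number and 7 without the 4 KO libraries whose number departs from the others. From day 7 to 10 in WT (22) it was 14 on log2(TPM + 1), 8 with the library total, 13 with no filter, 8 with only the groups compared, 12 with the members' own total and 4 to 19 leaving out 1 mouse number. For KO (6) it was 33 on log2(TPM + 1), 15 with the library total, 17 with the members' own total, 3 to 9 leaving out 1 mouse number and 1 without the 4 KO libraries. From day 9 to 10, where 0 were called, it was 0 to 1 leaving out 1 mouse number in each genotype and 2 with the DESeq2 Wald test in WT. The cause of each shift was not tested, beyond the scaling itself.

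The paired fit with the mouse number as replicate block gave 30 and 19 calls from day 7 to 8 and 22 and 7 from day 7 to 10 in WT and KO, and changed no other count. With the KO numbers exchanged to follow Ddx3y and Rps3a1, the replicate block gave 41 and 29 from day 7 to 8, 31 and 15 from day 7 to 10, and 2 for WT from day 9 to 10, where the correlation within a block was 0.23 instead of 0.005. In this fit, 25.1% of all genes were called lower and 23.9% higher in WT from day 7 to 8, and 24.2% and 23.6% in KO. From day 7 to 10 the shares were 22.6% and 21.4% in WT and 21.4% and 22.7% in KO.

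Of 30 named changes, 8 kept call and direction under all 17 alternatives: Rps27 in 3 comparisons, Rps2 in both steps from day 7 to 8, Rpl17 and Rpl23 in WT and Rpsa in KO. Rpl31 in KO from day 7 to 10 reversed to 0.05 on log2(TPM + 1), a scale on which the median of all genes moved to 0.25. With 3 mice per group, changes of the size seen here, mostly under 0.5 on the log2 scale, are near the limit of what the test calls, and reads shared with pseudogenes limit Rps3a1, Rps27 and the 24 members with over 50% shared sequence.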

Other observations

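Among the 75 members, the share of TPM was higher on day 9 than on day 7 in both genotypes (4.63% ± 0.20 against 4.06% ± 0.32 in WT and 4.90% ± 0.44 against 3.99% ± 0.32 in KO, SD, n = 3), with no overlap between the groups in either (4.46% to 4.85% against 3.75% to 4.39% in WT, and 4.44% to 5.31% against 3.64% to 4.26% in KO). The share of counts overlapped between these days (2.30% to 2.48% against 1.98% to 2.40% in WT, and 2.23% to 2.64% against 1.93% to 2.31% in KO). The summed CPM after TMM scaling was 23120 ± 638 against 24830 ± 2291 in WT and 23320 ± 832 against 23180 ± 1582 in KO. No test was made of this sum.

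The ratio of Rpsa to Rpl23, a member that rose and a member that fell, on day 7 lay between 1.02 and 1.16 in WT and between 1.17 and 1.38 in KO, without overlap. On day 8 the WT ratios were 1.88 to 1.99 and the KO ratios 1.82 to 2.20, which overlap. On day 9 they were 1.95 to 2.03 and 2.02 to 2.10, which overlap. On day 10 they were 1.77 to 1.92 and 1.97 to 2.04, without overlap. This pair was picked after its values were seen and was not tested.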
